A study of Mus musculus with 4 samples.

Results

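Homing, the ability of blood stem and progenitor cells to find, enter and hold on to the bone marrow, rests on a small set of surface receptors, and 10 of them were followed here in LSK cells that carried or lacked Bptf. The genes were chosen by name and not by a filter on their values, but with earlier results of these data known. They were the integrin subunits Itgal, Itgb2, Itgb1, Itga4, Itga5 and Itga6, the hyaluronan receptor Cd44, the selectin ligand Selplg, the chemokine receptor Cxcr4 and the sphingosine-1-phosphate (S1P) receptor S1pr1. All 10 were found among the 18598 genes of the deposited table, and all 10 passed the filter on low values that left 14858 genes to test. LSK cells are lineage-negative, Sca-1+, c-Kit+ marrow cells, the fraction that holds the blood stem cells and early progenitors. Bptf encodes the largest subunit of NURF, a complex that uses ATP to move nucleosomes. The sequencing set held 4 libraries, 2 from Bptf f/f mice, which carry the floxed allele without cre and are labelled control, and 2 from Bptf cKO mice, which carry the same floxed allele with Mx1-cre and are labelled Bptf -/-. All animals were C57BL/6, about 3 months old, and had received polyinosinic-polycytidylic acid (pIpC), the interferon inducer that switches Mx1-cre on, so that this exposure was common to both groups. Mx1-cre is active in every interferon-responsive cell, not in LSK cells alone, and no library from mice with Mx1-cre alone was analysed here. Each library came from LSK cells pooled from the long bones of 5 mice.

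An integrin is a pair of an alpha and a beta chain that crosses the cell membrane. Itgal and Itgb2 form LFA-1, the receptor for the ICAM proteins of the vessel wall. Itga4, Itga5 and Itga6 each pair with Itgb1 to form VLA-4, VLA-5 and VLA-6, which bind VCAM-1, fibronectin and laminin. Integrins rest in a bent, closed form and are opened from inside the cell, when talin and kindlin bind the beta tail and part it from the alpha tail. Circulating cells first roll on selectins through Selplg (PSGL-1) and Cd44, are then triggered by the chemokine CXCL12 through Cxcr4, and arrest on integrins. S1pr1 works the other way, guiding cells out of the marrow toward the S1P of the blood.

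The parts of the 6 integrin chains on which this switch acts are shown because they define the family and are the common feature of the chains compared below. They were read from the coding bases of GENCODE transcripts for GRCm38, taking for each gene the longest open reading frame that held the motif near its end. In the alpha chains, capitals mark the codons of the GFFKR motif, just inside the membrane, where the alpha and beta tails clasp each other.
Itgal: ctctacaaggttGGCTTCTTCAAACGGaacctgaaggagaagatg
Itga4: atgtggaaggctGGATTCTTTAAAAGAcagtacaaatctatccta
Itga5: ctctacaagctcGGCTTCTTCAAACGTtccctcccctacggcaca
Itga6: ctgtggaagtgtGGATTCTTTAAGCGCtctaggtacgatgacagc
In the beta chains, capitals mark the codons of the NPxY-type motifs, the sites of talin and kindlin binding, which carry a tyrosine codon at the last place in Itgb1 and a phenylalanine codon in Itgb2.
Itgb1: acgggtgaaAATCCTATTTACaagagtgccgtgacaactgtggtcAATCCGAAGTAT
Itgb2: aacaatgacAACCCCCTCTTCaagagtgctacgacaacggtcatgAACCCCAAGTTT
The 15 bases of the alpha motif differed between chains only in the letters that leave the motif itself the same, by 1 base between Itgal and Itga5 and by 3 or 4 bases in the other pairs. The motif lay 21 to 48 codons before the stop in the 4 alpha chains.

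Reads on genes numbered 24875746 in the first Bptf f/f library, 14091054 in the second, 30134742 in the first Bptf cKO library and 14104526 in the second, and pairs of values below keep this order of replicates. Values below are normalized counts, the reads of a gene divided by a size factor for its library. Bptf itself stood at 5520 and 5850 in Bptf f/f and at 3398 and 3320 in Bptf cKO, lower in both knockout libraries, with a limma adjusted p of 0.0439. DESeq2 also called Bptf, at an adjusted p of 9.73e-08. The call was lost in edgeR, at an adjusted p of 0.0531, and in each of the 4 limma fits that left out a library. Kit, one of the genes that define the sort, was between 13634 and 17051 in the 4 libraries and Ly6a, which encodes Sca-1, between 726 and 1743. Some libraries stood apart. Replicate 2 of both genotypes held Xist at 15675 and 11843 against 0.775 and 3.25 in replicate 1, and the pluripotency gene Pou5f1 at 582 and 738 against 0 in both replicates 1. The summed level of 9 granulocyte genes was 75746 in Bptf f/f replicate 1 and 11168 in replicate 2, with 46538 and 37008 in Bptf cKO. That of 8 B cell genes was 9435 and 2373 in Bptf f/f, with 5244 and 3046 in Bptf cKO, while 6 of 8 T cell genes, among them Cd3e, Cd3g and Cd3d, were not among the genes listed. These are bulk libraries, in which fewer cells of a type and less RNA per cell cannot be told apart.

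None of the 10 homing genes was called at an adjusted p under 0.05 in limma, the main test, against 0.74% of all tested genes. That test did not model the replicate number, by which Xist and Pou5f1 differed. With the replicate number in the fit, limma called 3 of the 10, against 14.4% of all genes. The labels do not show that this number pairs the samples. edgeR on the recovered reads also called none of the 10, against 0.633% of all genes, and DESeq2 called Itgal alone, against 5.51%. At an unadjusted p under 0.05, limma passed 4 of the 10, namely Itgal, Itgb2, Itgb1 and Cd44, against 15.7% of all genes, and edgeR and DESeq2 each passed 4, against 15.7% and 14.1%. The same 4 genes were the ones whose groups did not overlap, 3 with both Bptf cKO libraries above both Bptf f/f libraries and 1 below. Over all tested genes, 23.2% were free of overlap and higher in Bptf cKO and 23.8% were free of overlap and lower, and the call rates in the main test were 0.37% in each direction. The count of 3 and 1 among 10 genes therefore sat near the rate over all genes. Log2 fold changes of the 10 ranged from -0.32 to 1.22, with 6 above 0 and 4 below, and a median of 0.069 against 0.0010 over all genes. With 2 libraries a group, an exact permutation test of any single gene cannot give a two-sided p below 0.333.

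**Figure D1:**
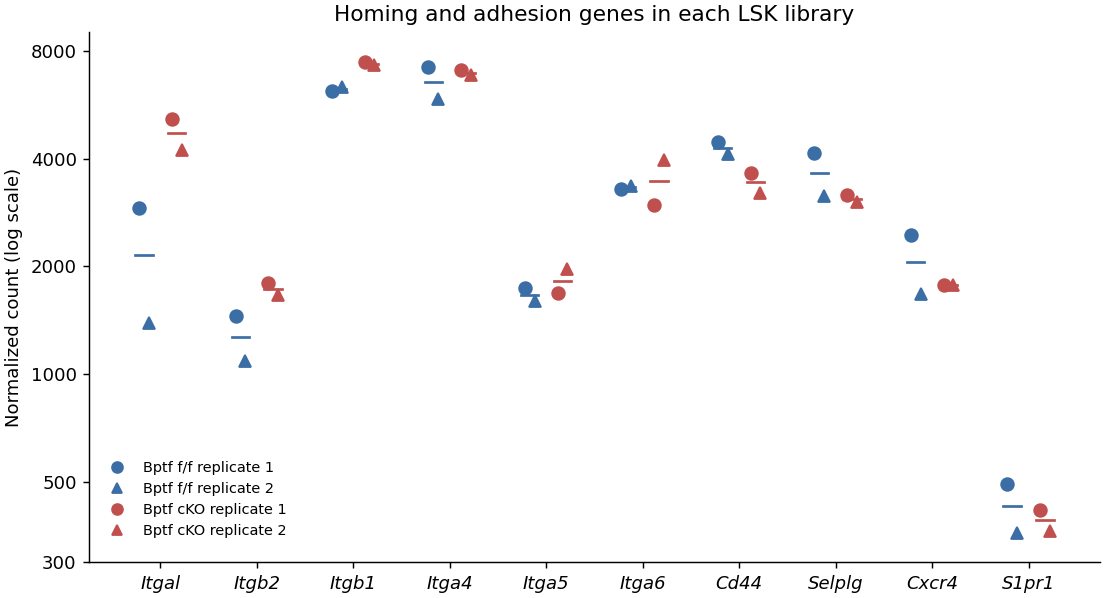
Normalized counts (log axis) of the 10 homing and adhesion genes in each library, with Bptf f/f in blue, Bptf cKO in red, replicate 1 as circles, replicate 2 as triangles and group means as horizontal lines. Itgal, Itgb2 and Itgb1 show both red points above both blue points, Cd44 shows them below, and the other 6 genes overlap.

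The widest difference was in Itgal (ENSMUSG00000030830.18, chr7:127296260-127335138, plus strand, GRCm38), the alpha chain of LFA-1. Normalized counts were 2911 and 1390 for the controls, against 5169 and 4231 for the knockout libraries. Both knockout libraries were above both controls, and the 2 controls were themselves far apart. The control mean was 2150 ± 1075 (SD, n = 2), and the knockout mean was 4700 ± 663 (SD, n = 2). The fitted log2 fold change was 1.22 with a standard error of 0.35 and a 95% interval of 0.33 to 2.10, a 2.32-fold difference with bounds of 1.26 and 4.29. Its adjusted p was 0.208 in limma and 0.245 in edgeR, neither of which called it, and 0.0128 in DESeq2, which did. Without Bptf f/f replicate 1, the library with the highest granulocyte sum, the log2 fold change was 1.75. That fit kept 1 control library, Bptf f/f replicate 2, where Itgal was lowest. Without Bptf f/f replicate 2, and so with replicate 1 as the only control, the log2 fold change was 0.68. Of the 9 granulocyte genes, 7 had a negative log2 fold change and the list median was -0.44. Elane and Mpo were the other 2, and Mpo, a granule enzyme of the myeloid line, stood at 28963, 6313, 30321 and 28192 in the same order of libraries. The granulocyte sum was lowest, at 11168, in Bptf f/f replicate 2, the library where Itgal was lowest. Each gene of the list but Mmp8 also had its lowest value there. The part of these markers in the Itgal values was not tested.

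Itgb2 (ENSMUSG00000000290.13, chr10:77530252-77565708, plus strand), the beta chain that pairs with Itgal, had normalized counts of 1459 and 1091 in Bptf f/f and 1801 and 1665 in Bptf cKO. The groups did not overlap, and the lowest value was again in Bptf f/f replicate 2. The log2 fold change was 0.46 with a standard error of 0.16 and an interval of 0.041 to 0.87, and its adjusted p was 0.281 in limma, 0.296 in edgeR and 0.238 in DESeq2. Without Bptf f/f replicate 2 the log2 fold change was 0.25. Both chains of LFA-1 were thus higher in each knockout library than in each control library. Neither was called in the main limma fit, which has no replicate block.

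Itgb1 (ENSMUSG00000025809.15, chr8:128685654-128733200, plus strand), the partner of Itga4, Itga5 and Itga6, varied little between replicates. It stood at 6179 and 6349 normalized counts in Bptf f/f and at 7445 and 7273 in Bptf cKO. Both knockout libraries were above both controls by more than the gap within either group. The size of that step was small, with a log2 fold change of 0.23, a standard error of 0.086 and an interval of 0.014 to 0.45, and the adjusted p was 0.293 in limma, 0.314 in edgeR and 0.300 in DESeq2. The limma standard error draws on the spread of genes of like level, not on that of Itgb1 alone. Recentring the libraries on their medians moved the median of all genes from 0.0010 to 0.053 on the log2 scale. The log2 fold change of Itgb1 was 0.28 after that recentring and 0.16 after quantile normalization.

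The alpha chains that pair with Itgb1 did not separate the genotypes. Itga4 (ENSMUSG00000027009.18, chr2:79255426-79333123, plus strand), of VLA-4, had normalized counts of 7211 and 5858 in Bptf f/f and 7044 and 6825 in Bptf cKO. Both knockout values fell between the 2 controls. Itga4 shares 8.04% of its exonic bases with Cerkl on the opposite strand, and the strand setting of the counting is not given in the sources used here. Itga5 (ENSMUSG00000000555.8, chr15:103344286-103366763, minus strand), the fibronectin receptor chain of VLA-5, had 1741 and 1598 against 1689 and 1964. Its highest value was in a knockout library and its lowest in a control, with overlap between. Itga6 (ENSMUSG00000027111.15, chr2:71745616-71858416, plus strand), the laminin receptor chain of VLA-6, had 3292 and 3360 against 2966 and 3966, so that the 2 knockout libraries enclosed both controls. The log2 fold changes were 0.093 for Itga4, 0.13 for Itga5 and 0.045 for Itga6. Their 95% intervals ran from -0.23 to 0.41 for Itga4, from -0.18 to 0.43 for Itga5 and from -0.35 to 0.44 for Itga6, and the limma adjusted p values were 0.792, 0.685 and 0.934. Itga4 and Itga6 each changed sign when 1 library was left out, to -0.057 for Itga4 without Bptf f/f replicate 2 and to -0.16 for Itga6 without Bptf cKO replicate 2.

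**Figure D2:**
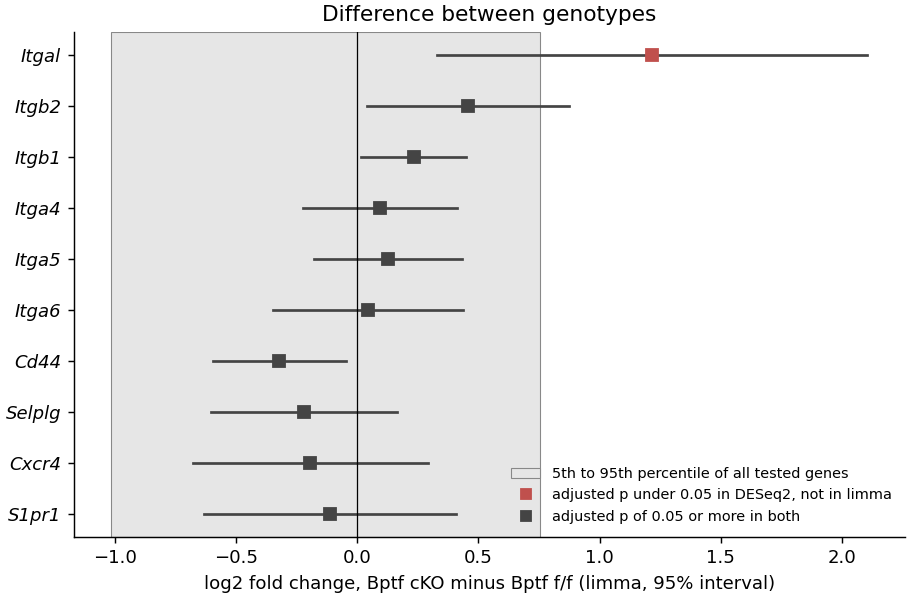
The log2 fold change of each gene (squares, Bptf cKO minus Bptf f/f, limma) with its 95% interval (lines), over the 5th to 95th percentile of all tested genes (grey band, -1.01 to 0.76). Itgal, in red for its DESeq2 call, is the only square outside the band, and the intervals of 4 genes leave out 0.

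Cd44 (ENSMUSG00000005087.17, chr2:102811141-102901665, minus strand), a receptor for hyaluronan that also carries selectin-binding glycans, was the one homing gene whose groups separated downward. It had normalized counts of 4455 and 4115 in Bptf f/f and 3649 and 3213 in Bptf cKO. Both knockout libraries lay below both controls. The log2 fold change was -0.32 with a standard error of 0.11 and an interval of -0.60 to -0.048, and the adjusted p was 0.258 in limma, 0.273 in edgeR and 0.233 in DESeq2. Selplg (ENSMUSG00000048163.13, chr5:113818536-113832644, minus strand), the main ligand of P-selectin, had 4138 and 3139 in Bptf f/f and 3168 and 3018 in Bptf cKO. Bptf f/f replicate 1 was high and the other 3 libraries were close together. Its log2 fold change was -0.22 with an interval of -0.60 to 0.16 and a limma adjusted p of 0.555.

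RefSeq promoter windows were at hand for 5 of the 10 genes, Cxcr4, Itga4, Cd44, Itgb1 and Itga5. The 250 bases before the start of Cd44 and of Itgb1 are shown because these are the members with a window whose groups separated, in opposite directions. Capitals mark the core motif GAGGAA of PU.1, a myeloid and stem cell transcription factor, searched on both strands, so that a match on the other strand reads TTCCTC.
Cd44, minus strand, chr2:102901666-102901915: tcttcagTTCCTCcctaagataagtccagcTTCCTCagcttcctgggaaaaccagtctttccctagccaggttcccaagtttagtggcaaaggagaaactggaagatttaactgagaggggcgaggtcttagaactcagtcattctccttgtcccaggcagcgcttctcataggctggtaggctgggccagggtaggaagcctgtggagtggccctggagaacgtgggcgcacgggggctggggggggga
Itgb1, plus strand, chr8:128685404-128685653: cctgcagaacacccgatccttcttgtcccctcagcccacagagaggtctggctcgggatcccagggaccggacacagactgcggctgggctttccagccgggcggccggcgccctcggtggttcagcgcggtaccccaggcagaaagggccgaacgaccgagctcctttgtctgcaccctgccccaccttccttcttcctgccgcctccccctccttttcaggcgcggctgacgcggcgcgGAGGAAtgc
Both windows use RefSeq annotation of GRCm38.p6. The motif was found 2 times in the window of Cd44 and 1 time in that of Itgb1, and in 3 of the 5 windows in all, against 23.3% of 32851 windows of the same length. The GC box CCGCCC was found in 4 of 5, against 32.7%, the RUNX motif TGTGGT in 1, against 14.0%, and neither the AP-1 motif TGANTCA (6.75% of windows) nor the E-box CACGTG (6.02%) was found in any of the 5. No motif searched contains another, and a match describes the bases only.

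Cxcr4 (ENSMUSG00000045382.6, chr1:128588199-128592293, minus strand), the receptor that holds stem cells near CXCL12-making stroma, had normalized counts of 2452 and 1676 in Bptf f/f and 1776 and 1771 in Bptf cKO. The 2 knockout libraries were nearly equal and lay inside the range of the controls. The log2 fold change was -0.19 with an interval of -0.68 to 0.29 and a limma adjusted p of 0.700. Without Bptf f/f replicate 1 it was 0.082, so its direction rested on that library. S1pr1 (ENSMUSG00000045092.8, chr3:115710433-115715072, minus strand), the egress receptor, was the least abundant of the 10, at 496 and 362 in Bptf f/f and 420 and 365 in Bptf cKO. The groups overlapped, the log2 fold change was -0.11 with an interval of -0.63 to 0.41, and it became 0.11 without Bptf f/f replicate 1. Even for S1pr1 the fewest reads in a library were 259, a counting error of 6.21%, which was smaller than the gap between the control replicates.

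The control replicates differed more than the knockout replicates in 7 of the 10 genes, and Bptf f/f replicate 1 was the higher control in 8 of 10. The log2 ratio of the controls reached 1.07 in Itgal and 0.55 in Cxcr4. It exceeded the median size over all tested genes, 0.24, in 6 of the 10, while the ratio of the knockout libraries exceeded its median, 0.18, in 4. By these medians the controls were further apart than the knockout libraries over all tested genes as well. Between the 2 libraries that held Xist, the log2 difference of Bptf cKO from Bptf f/f was 1.61 for Itgal, 0.61 for Itgb2, 0.20 for Itgb1 and -0.36 for Cd44. Between the 2 without Xist it was 0.83 for Itgal, 0.30 for Itgb2, 0.27 for Itgb1 and -0.29 for Cd44. With Selplg, at -0.057 and -0.39, these were the 5 genes whose sign was the same in both splits. For Itgal, Itgb2, Itgb1 and Cd44 the same sign follows from groups that do not overlap, whatever the pairing. No share over all genes was taken for this count. The sign differed for Itga4, Itga5, Itga6, Cxcr4 and S1pr1.

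**Figure D3:**
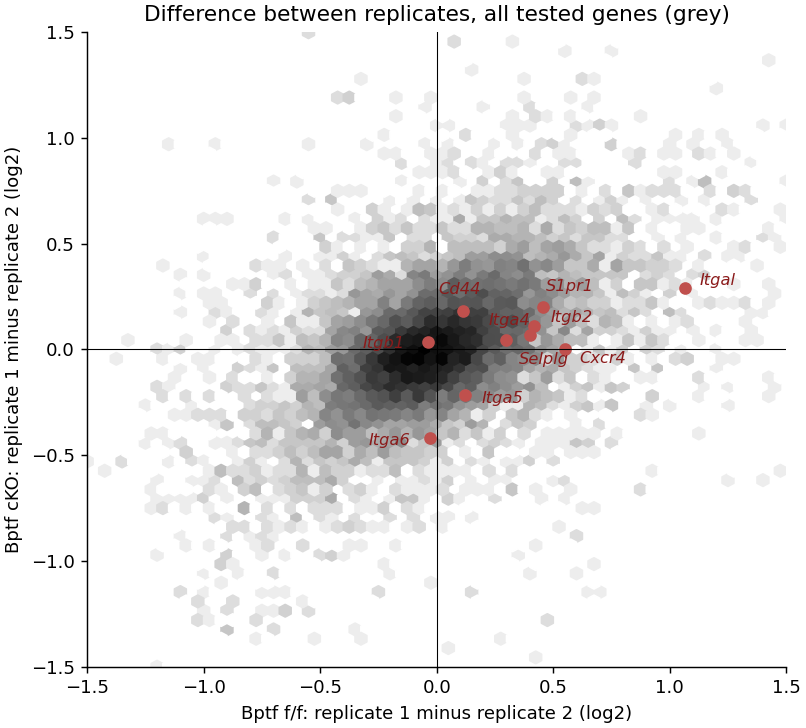
The log2 difference of replicate 1 from replicate 2 in Bptf f/f (x axis) and in Bptf cKO (y axis) for the 10 genes (red) over all tested genes (grey hexagons, darker for more genes on a log scale, with 884 of 14858 genes outside the axes of 1.5 either way). Itgal lies far to the right, at 1.07 between the controls and 0.29 between the knockout libraries, and Itga6 is lowest, at -0.42 between the knockout libraries.

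Levels of different genes can be compared only per length, so normalized counts were divided by the kilobases of exon of each gene. That length joins the annotated exons of all transcripts. Exons not used in these cells would lower a gene's value, so the order of genes is approximate. On that scale Itgb1 was the most abundant of the 10, with a mean over the 4 libraries of 1669 per kb, above every library of Cxcr4, whose mean was 1061. Cxcr4 and Selplg (788) overlapped, and Selplg was above Cd44 (569) in every library. Cd44, Itgal (521), Itgb2 (493), Itga4 (482), Itga6 (376) and Itga5 (354) followed, each overlapping the next. S1pr1, at 135 per kb, was below all the others in every library. These ranks join libraries of both genotypes, and the place of Itgal differed between them. Its mean was 327 per kb in Bptf f/f, below the means of the other 5 integrin chains though its libraries overlapped those of all but Itgb1, and 716 in Bptf cKO, above both libraries of Cd44, whose mean there was 506.

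Read as chain pairs, the ratio of Itgal to Itgb2 per kb was 0.927 and 0.592 in Bptf f/f and 1.33 and 1.18 in Bptf cKO. The ratio was higher in both knockout libraries than in both controls. With these exon lengths the alpha chain was below its partner in both controls and above it in both knockout libraries. Which chain is the higher depends on the lengths used. The sum of Itga4, Itga5 and Itga6 over Itgb1 was 0.815 and 0.717 in Bptf f/f and 0.644 and 0.744 in Bptf cKO, with overlap. Within that sum the share of Itga5 was 28.6% to 30.0% and that of Itga6 28.0% to 33.4% over the 4 libraries, with 36.8% to 42.9% for Itga4. These ratios were given no test across genes.

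**Figure D4:**
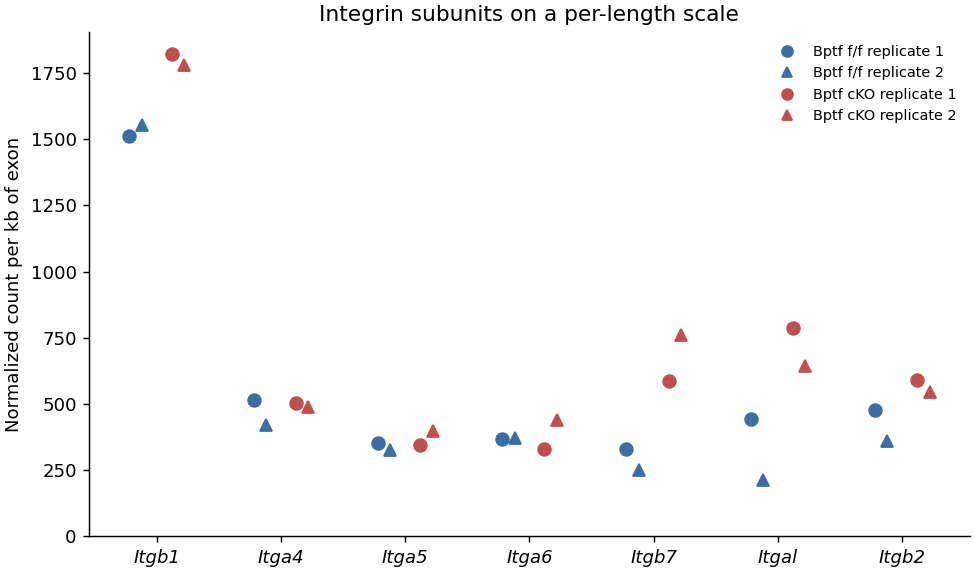
Normalized counts per kilobase of exon (linear axis from 0) of the integrin chains in each library, with Bptf f/f in blue and Bptf cKO in red, replicate 1 as circles and replicate 2 as triangles. Itgb1 is highest in every library, and Itgb1, Itgb7, Itgal and Itgb2 show both red points above both blue points.

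Counts in the 5 lists that follow stand against shares over all tested genes of 0.74% called in limma, 5.51% called in DESeq2, 15.7% with an unadjusted limma p under 0.05, 23.2% separated upward and 23.8% separated downward. Integrin chains beyond the 6 were represented by a list of 20, of which 17 were in the table and 15 were tested. limma and edgeR called 0 of the 15, DESeq2 called 1, and 3 (20.0%) had an unadjusted limma p under 0.05. Groups were free of overlap and higher in Bptf cKO for 4 (26.7%) and lower for 1 (6.67%), and the median log2 fold change was 0.21 against 0.0010 over all genes. Itgb7, which pairs with Itga4 to bind MAdCAM-1, was the DESeq2 call. It had normalized counts of 914 and 696 in Bptf f/f and 1628 and 2101 in Bptf cKO, both knockout libraries above both controls. Itgb7 differed by 1.21 on the log2 scale, with a standard error of 0.19, with an adjusted p of 0.0751 in limma, 0.0859 in edgeR and 8.47e-06 in DESeq2. Per kb, the ratio of Itgb7 to Itgb1, alternative partners of Itga4, was 0.218 and 0.161 in Bptf f/f and 0.322 and 0.426 in Bptf cKO. Itgam, the alpha chain of the myeloid integrin Mac-1 that also pairs with Itgb2, had 470 and 97.0 in Bptf f/f and 144 and 57.8 in Bptf cKO. Its groups overlapped, with the highest value in the library with the highest granulocyte sum, and the adjusted p was 0.551 in limma. Its counts are uncertain, because 68.7% of its exonic bases are shared with Gm49368 on the same strand.

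The proteins that open integrins and tie them to the cytoskeleton formed a list of 30, of which 26 were tested. limma and edgeR called 0, DESeq2 called 2, and 7 (26.9%) had an unadjusted limma p under 0.05. The groups separated upward for 4 (15.4%) and downward for 9 (34.6%), with a median log2 fold change of -0.11. Parvg (gamma-parvin), an adaptor of the kinase ILK in blood cells, had 7671 and 6766 normalized counts in Bptf f/f and 11406 and 10942 in Bptf cKO. Both knockout libraries were well above the controls, at a log2 fold change of 0.63, with an adjusted p of 0.0778 in limma, 0.0916 in edgeR and 9.77e-05 in DESeq2. Parvb (beta-parvin), its paralog, had 321 and 341 against 232 and 255, at -0.44 and an adjusted p of 0.299 in limma. The second DESeq2 call, Tln2 (a talin), had 20.2 and 55.4 against 118 and 176, at a log2 fold change of 2.07 and adjusted p of 0.181 in limma and 0.0226 in DESeq2. The abundant blood cell talin Tln1 had 24492 and 27825 against 27656 and 34156, and the kindlin Fermt3 9859 and 8973 against 8682 and 8610. Neither passed in limma (adjusted p 0.503 for Tln1 and 0.610 for Fermt3). Tln2, Tln1 and Fermt3 were named after their values were seen.

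The list of selectin binding and of the enzymes that build selectin ligands held 14 genes, all tested. limma and edgeR called 0, DESeq2 called 1, and 2 (14.3%) had an unadjusted limma p under 0.05. The groups separated upward for 1 (7.14%) and downward for 2 (14.3%), with a median of 0.033. St3gal6, a sialyltransferase that makes the sialylated cap of selectin ligands, had 222 and 182 normalized counts in Bptf f/f and 128 and 94.5 in Bptf cKO. Both knockout values were below both controls, at a log2 fold change of -0.86 and a limma adjusted p of 0.219, and part of its exonic sequence lies opposite Dcbld2, whose reads cannot be told apart without strand. Fut4, a fucosyltransferase, had 237 and 165 against 324 and 254, at 0.53 and an adjusted p of 0.403 in limma. Gcnt1, which builds the branched O-glycan on Selplg that selectins need, was the DESeq2 call. It had 1212 and 1272 against 851 and 899, at -0.51 and adjusted p values of 0.128 in limma and 0.0282 in DESeq2, and was named after its values were seen.

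**Figure D5:**
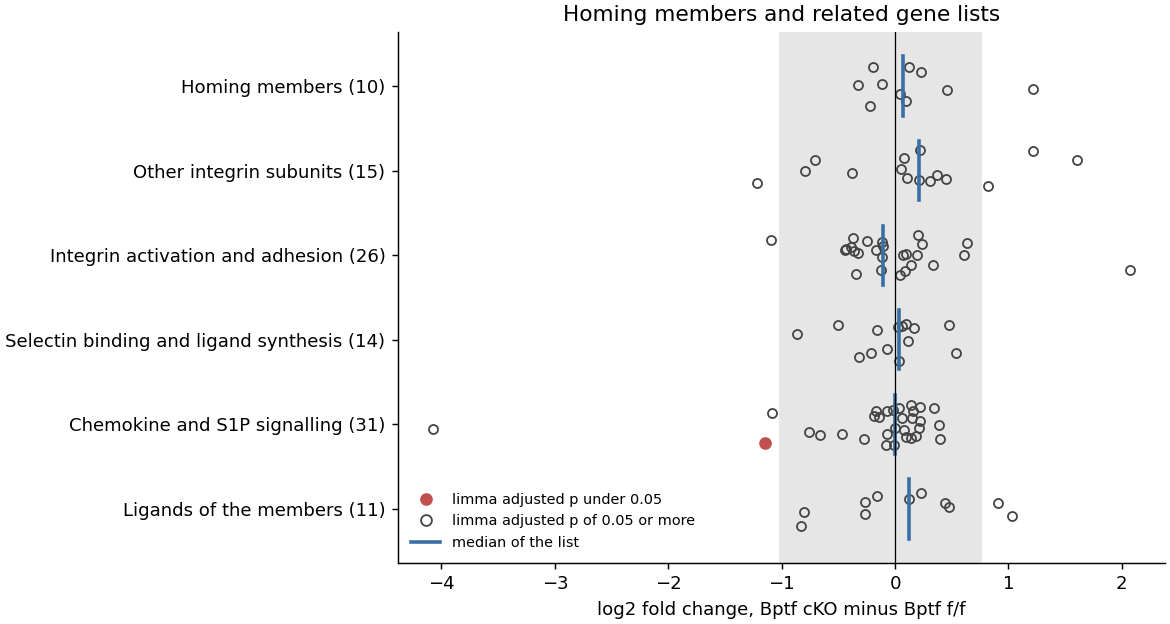
The log2 fold change (Bptf cKO minus Bptf f/f, limma) of each tested gene of the homing set and of the 5 related lists, with the number tested in parentheses, list medians as blue lines and the 5th to 95th percentile of all tested genes as a grey band. The filled red point is Rgs2, the one gene called in limma, and the point far to the left is Sphk1 at -4.08.

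Genes that pass on or damp the chemokine and S1P signals held the only limma call among these 5 lists. Of 33 listed genes 31 were tested, limma and edgeR called 1 lower and 0 higher, DESeq2 called 3, and 6 (19.4%) had an unadjusted limma p under 0.05. The groups separated upward for 7 (22.6%) and downward for 8 (25.8%), with a median of -0.0041. Rgs2, a regulator that shortens signalling by G proteins, had normalized counts of 3513 and 3487 in Bptf f/f and 1703 and 1458 in Bptf cKO. It fell in Bptf cKO, at a log2 fold change of -1.15 with a standard error of 0.11. The adjusted p was 0.0297 in limma, 0.0357 in edgeR and 8.06e-12 in DESeq2. Leaving out any of the 4 libraries ended the limma call, with adjusted p values of 0.0538 to 0.122 at log2 fold changes of -1.26 to -1.04. Sphk1, a kinase that makes S1P, the ligand of S1pr1, had 188 and 137 in Bptf f/f and 4.55 and 15.5 in Bptf cKO. The 2 groups were far apart, at a log2 fold change of -4.08 with an interval of -5.61 to -2.54, and the adjusted p of Sphk1 was 0.0660 in limma, 0.0766 in edgeR and 3.22e-08 in DESeq2. Arrb1, an arrestin that ends receptor signalling, had 4271 and 4583 against 3273 and 3145, at -0.46 and adjusted p values of 0.113 in limma and 0.00869 in DESeq2. Sphk1 and Arrb1 were named after their values were seen.

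Ligands of the 10 receptors, and genes that make or export such ligands, were followed as 15 genes, of which 11 were tested. They were listed as products of marrow stroma and vessels, but some were abundant in these LSK libraries. Spns2, an S1P transporter, had 9923 and 9085 normalized counts in Bptf f/f and 8324 and 8701 in Bptf cKO. limma and edgeR called 0, DESeq2 called 1, and 1 (9.09%) had an unadjusted limma p under 0.05, with groups separating upward for 1 (9.09%) and downward for 3 (27.3%) and a median of 0.13. Spp1 (osteopontin) had 36.4 and 151 normalized counts in Bptf f/f and 77.3 and 303 in Bptf cKO. Fn1 (fibronectin) had 110 and 456 against 302 and 591. In both genes the libraries of replicate 2 were the high ones, and the groups overlapped, at log2 fold changes of 1.03 for Spp1 and 0.91 for Fn1 and limma adjusted p values of 0.649 and 0.610. Without Bptf f/f replicate 1 they were 0.022 for Spp1 and -0.11 for Fn1, and without Bptf cKO replicate 2 Spp1 was at 0.054. Lamc1, a laminin chain of the kind that Itga6 binds, was the DESeq2 call, at 660 and 863 against 400 and 466, a log2 fold change of -0.81 and adjusted p values of 0.140 in limma and 0.0149 in DESeq2, and was named after its values were seen. Cxcl12, the ligand of Cxcr4, was at 6.98 and 18.0 in Bptf f/f and 0.650 and 28.2 in Bptf cKO, with 1 read in the first knockout library.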

How the data were processed

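RNA of sorted LSK cells was sequenced in 4 libraries. Per the labels, reads were aligned with HISAT2 to GRCm38/mm10, counted with featureCounts and normalized with DESeq2; versions and strand setting are not given in the sources used here. The deposited signal is gene counts divided by 1 size factor per library: dividing by the smallest value above 0 gave whole reads for 100% of values (tolerance 0.01). Columns of the authors' own comparison (fold changes and p-values) were not used, and no per-sample column was left out.

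limma 3.58.1 (mean-variance trend) was fitted to log2(normalized count + 1), which understates changes of low genes, for genes with a mean of at least 10, Bptf cKO against Bptf f/f, with Benjamini-Hochberg adjustment over all tested genes, two-sided, called under 0.05. edgeR 4.0.16 (quasi-likelihood, TMM) and DESeq2 1.42.0 on the recovered reads, other pseudocounts, filters and scalings, a replicate block and each library left out were alternatives. The scripts were tested on simulated data. P-values rest on the spread between libraries, each a pool of mice. In limma the spread of each gene is drawn toward that of genes of like level. Counting errors cover counting only.

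The members and lists were chosen with earlier results of these data known. Of each list beyond the 10 genes, the text names up to 4 limma-called genes with the largest fold changes or, where none passed, the 2 with the largest fold changes and a mean of at least 100; the rest are said to be named after their values were seen, and some genes are not reported here. Exon lengths and positions are from GENCODE for GRCm38, the build of the processing notes.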

Additional observations from a re-analysis of the deposited data

How the results depend on the processing

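Among the 10 homing genes, 138 values under the alternatives kept their direction and side of the threshold, 8 passed it and 4 reversed. Each reversal came from leaving out 1 library, which gave log2 fold changes of -0.47 to 0.082 for Cxcr4, -0.34 to 0.11 for S1pr1, -0.057 to 0.24 for Itga4 and -0.16 to 0.25 for Itga6. The cause was not tested. Other named genes that reversed in this way ranged from -0.11 to 1.93 (Fn1), -1.08 to 0.062 (Cd79b), -1.34 to 0.72 (Pax5), -0.037 to 1.30 (Elane), -0.16 to 0.56 (Pecam1) and -0.81 to 1.05 (Pdgfrb), and Pdgfrb was also -0.069 in edgeR and -0.067 in DESeq2.

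Leaving out 1 library gave 0 to 1 called homing genes, 1 to 123 called genes in all (1 without Bptf cKO replicate 1 and 4 without Bptf cKO replicate 2), 0 to 1 selectin ligand genes and 0 to 0 chemokine and S1P genes. DESeq2 called 1 homing gene, 819 genes in all, 1 other integrin chain, 2 adhesion genes, 1 selectin ligand gene, 3 chemokine and S1P genes and 1 ligand gene. Without the trend 2 genes in all and 0 chemokine and S1P genes were called, and with a pseudocount of 10, 2 of the latter.

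The labels give only replicate numbers, and with 2 pairs these are not shown to pair the samples (the correlation of same-numbered deviations over genes was 0.45). Xist and Pou5f1 did differ by replicate number in both genotypes, a split that the main fit does not model. With the replicate block, limma called 2138 genes in all (14.4%) and edgeR 2120. Both called 3 homing genes (Itgal, Itgb2 and Cd44), 2 other integrin chains, 7 adhesion genes, 2 selectin ligand genes, 9 chemokine and S1P genes and 3 ligand genes. In limma with the block the adjusted p was 0.000216 for Itgal, 0.0135 for Itgb2 and 0.0260 for Cd44. The fewest reads of any of the 10 genes were 259, and the number of libraries limits the precision.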

Other observations

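Genes of the marker lists, which the sort or the marrow could contribute, gave the following values. Epor, the erythropoietin receptor, fell from 326 and 255 to 77.3 and 69.1, at -1.96 and an adjusted p of 0.0443 in limma and 2.18e-07 in DESeq2. Its call was lost in edgeR (0.0513) and in all 4 limma fits that left out a library. The summed level of 10 erythroid genes was 2819 and 2116 in Bptf f/f and 508 and 612 in Bptf cKO, and that of 10 LSK genes 61622 and 54881 against 47058 and 44999.

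Outside the LSK and erythroid lists no marker gene was called in limma, and the genes named next did not pass the test. Of the stromal list, Alpl was at 96.1 and 109 against 199 and 296 (adjusted p 0.132 in limma and 0.0118 in DESeq2), and Pdgfrb at 1936 and 532 against 1582 and 770. The other 3 tested genes of that list had negative log2 fold changes, its median was -0.75, and Col1a2, named after its values were seen, was at 76.0 and 99.8 against 20.8 and 31.0 (0.129 in limma and 0.0258 in DESeq2). Ly6c2, a monocyte gene, was at 526 and 240 against 852 and 729, and Csf1r at 598 and 137 against 101 and 155. The B cell genes Cd79b and Pax5 were at 1231 and 556 against 680 and 495, and at 1710 and 410 against 902 and 503.7. Elane, a granule protease, was at 2005 and 793 against 2108 and 1813. The megakaryocyte genes Pf4 and Vwf were at 481 and 315 against 255 and 192, and at 1353 and 2499 against 599 and 1362. Of the 7 tested genes of that list, 4 had a negative log2 fold change and 3 a positive one, with a median of -0.18. The endothelial genes Pecam1 and Tek were at 2725 and 1659 against 2466 and 2423, and at 613 and 814 against 522 and 611. Thy1, of the T cell list, was at 402 and 572 against 314 and 262. The summed levels over the 4 libraries were 313 to 662 for the T cell list, 965 to 1996 for monocytes and macrophages, 5655 to 7481 for megakaryocytes, 3177 to 3851 for endothelium and 789 to 2135 for stroma.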
